A study of Rattus norvegicus with 33 samples.

Results

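Hydrogenases are the enzymes by which microbes make and take up molecular hydrogen, and 7 of the 1057 functional subsystems in the metagenome of the rat cecum carry the enzyme in their name. They were chosen by name alone, as the subsystems whose name contains hydrogenase but not dehydrogenase, which set aside 11 names of dehydrogenases. The set was proposed after a lower level of one of them, Energy-conserving hydrogenase (ferredoxin), was known in SHR females. The difference between the strains in females is therefore given for these subsystems as a description and supports nothing. Of the 7 subsystems, 6 held reads, and Coenzyme F420 hydrogenase held 0 reads in every rat.

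The data are shotgun sequences of DNA from the cecal contents of 33 rats aged 14 to 15 weeks, each library from its own rat. They were of a strain bred for high blood pressure, labelled Spontaneous hypertensive Rats (SHR), and of the strain they were compared with, labelled Wistar Kyoto (WKY) rats, with no treatment named for any group. There were 10 SHR females, 9 WKY females, 7 SHR males and 7 WKY males. No cage, litter or batch is named in the labels. The sample titles form a continuous series in which all SHR rats come before all WKY rats. Whether that is the order of processing is not stated, and an effect of such an order could not be told apart from strain.

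In the gut, hydrogen is a by-product of fermentation: bacteria that break down carbohydrate pass surplus electrons to protons. Other microbes use that hydrogen, among them methanogens, acetogens and sulfate reducers, and its removal keeps fermentation running. The 2 main families of the enzyme are named for the metals of their active site. FeFe enzymes are common in fermenting anaerobes such as clostridia and mostly release hydrogen, while NiFe enzymes are more widespread and serve uptake as well as release.

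A value below is a normalized read count, the reads assigned to a subsystem divided by a size factor of the library. Subsystems hold different numbers and lengths of genes, so levels were tested between groups and not between subsystems. Where a subsystem is called scarcest or most abundant, or is given as a share, this refers to its reads only. Libraries held 95952 to 489862 reads assigned to functions, with medians of 214911 in SHR females, 396240 in WKY females, 315719 in SHR males and 382975 in WKY males, so the SHR libraries were the shallower ones. The values are relative to the rest of the library. A lower level of a subsystem can mean fewer cells that carry its genes, fewer copies per cell or more DNA of other functions, which cannot be told apart here. Differences are given on the scale of log2(normalized reads + 1) with their standard error (SE), and a call means an adjusted p under 0.05 by limma over the 1024 subsystems that held a read.

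Together the hydrogenase subsystems took under 1% of the function reads in every rat, with no test made on the sum. Their share of function reads ran from 0.425% to 0.575% with a median of 0.452% in SHR females (mean 0.482% ± 0.0599, SD, n = 10). In WKY females it ran from 0.359% to 0.570% with a median of 0.5256% (mean 0.474% ± 0.0934, SD, n = 9). SHR males stood at 0.418% to 0.521% with a median of 0.504% (mean 0.489% ± 0.0391, SD, n = 7). WKY males had the highest mean, at 0.451% to 0.781% with a median of 0.589% (mean 0.596% ± 0.126, SD, n = 7), and their range overlapped that of every other group. The make-up of these reads by group is drawn in the plot of the mean percents.

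**Figure D1:**
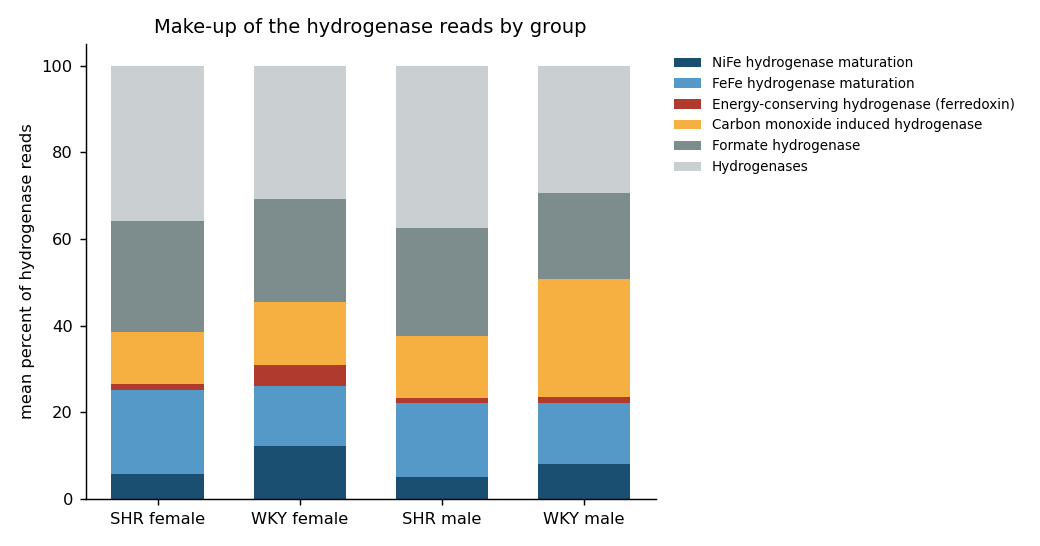
Mean make-up of the hydrogenase reads in each group, in percent of the reads of the 6 subsystems that held any (y axis), for the 4 groups of rats (x axis). Carbon monoxide induced hydrogenase took 27.2% in WKY males against 12.05% to 14.5% in the other groups, and NiFe hydrogenase maturation took 12.2% in WKY females against 5.10% to 7.96% in the others.

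In WKY males 27.2% ± 8.58 (SD, n = 7) of the hydrogenase reads were those of Carbon monoxide induced hydrogenase, and 14.4% ± 6.47 (SD, n = 7) in SHR males. NiFe hydrogenase maturation took 12.2% ± 3.20 (SD, n = 9) in WKY females and 5.83% ± 1.79 (SD, n = 10) in SHR females. Energy-conserving hydrogenase (ferredoxin) took 4.75% ± 1.65 (SD, n = 9) in WKY females and from 1.14% to 1.40% on average in the other groups. FeFe hydrogenase maturation took 19.3% ± 3.52 (SD, n = 10) in SHR females and 13.9% ± 3.16 (SD, n = 9) in WKY females. Shares of one sum move together, since a subsystem that takes more leaves less for the rest, so the tests below were made on the normalized reads and not on these shares.

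The maturation subsystems hold the accessory proteins that build the metal centres. The Hyp proteins assemble the NiFe centre, and HydE, HydF and HydG assemble the FeFe centre. NiFe hydrogenase maturation ran from 55.7 to 131 normalized reads with a median of 78.4 in SHR females, and from 110.1 to 288 with a median of 171 in WKY females. In males it ran from 57.6 to 94.3 with a median of 73.5 in SHR and from 76.9 to 230 with a median of 132 in WKY. Both SHR groups were low and both WKY groups were high, with some overlap in each sex: 2 SHR females lay above the lowest WKY female, and 3 SHR males lay above the lowest WKY male.

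FeFe hydrogenase maturation was ordered otherwise. It ran from 193 to 412 normalized reads with a median of 280.4 in SHR females, and from 129 to 268 with a median of 188 in WKY females. In males the ranges were 175 to 350.4 with a median of 278 in SHR and 146 to 359 with a median of 278 in WKY. WKY females alone were low, while SHR females and the males of both strains had means from 254 to 283 and overlapping ranges.

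Energy-conserving hydrogenase (ferredoxin) is a membrane-bound NiFe enzyme that couples the oxidation of ferredoxin, a small iron-sulfur electron carrier, to hydrogen release and ion pumping. It was the scarcest of the 6 subsystems that held reads, with 2 to 25 reads a library in SHR females, 44 to 127 in WKY females, 8 to 32 in SHR males and 7 to 134 in WKY males, so counting error is larger here than in the other 5. Its normalized reads ran from 1.74 to 56.2 with a median of 15.2 in SHR females, and from 34.7 to 113 with a median of 65.0 in WKY females. In males they ran from 6.84 to 24.7 with a median of 17.04 in SHR, and from 5.23 to 106 with a median of 11.3 in WKY. WKY females were high as a group and the other 3 groups had lower medians, but they overlapped: WKY male 3 at 106, SHR female 10 at 56.2 and WKY male 6 at 37.3 lay above the lowest WKY females.

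The name Carbon monoxide induced hydrogenase stands for the NiFe enzyme that, in carbon monoxide-oxidizing bacteria such as Rhodospirillum rubrum, works beside carbon monoxide dehydrogenase and releases hydrogen. Its normalized reads ran from 99.0 to 297 with a median of 176 in SHR females, from 130.5 to 366 with a median of 160 in WKY females, and from 93.2 to 370 with a median of 190.2 in SHR males. In WKY males they ran from 243 to 812 with a median of 501. WKY males were high, with 5 of 7 above every rat of the other 3 groups, while those 3 groups overlapped widely.

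Formate hydrogenase covers the formate hydrogenlyase reaction, in which enteric bacteria split formate into hydrogen and carbon dioxide. It ran from 291 to 491 normalized reads with a median of 373 in SHR females, from 269 to 371 with a median of 358 in WKY females, from 269.6 to 453 with a median of 373 in SHR males, and from 222 to 473 with a median of 354 in WKY males. The general subsystem Hydrogenases, which gathers structural subunits, ran from 402 to 843 with a median of 478, from 328 to 613 with a median of 439, from 507 to 638 with a median of 527, and from 390.1 to 699 with a median of 476, in the same order. All groups overlapped in both subsystems, and no group stood apart.

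Coenzyme F420 hydrogenase, which methanogens use to pass electrons from hydrogen to their deazaflavin coenzyme, had 0 of 10682219 function reads over all rats, which allows a share of up to 2.81e-05% of them. In the shallowest library a count of 0 allows up to 0.00313%. This limit covers counting error only.

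**Figure D2:**
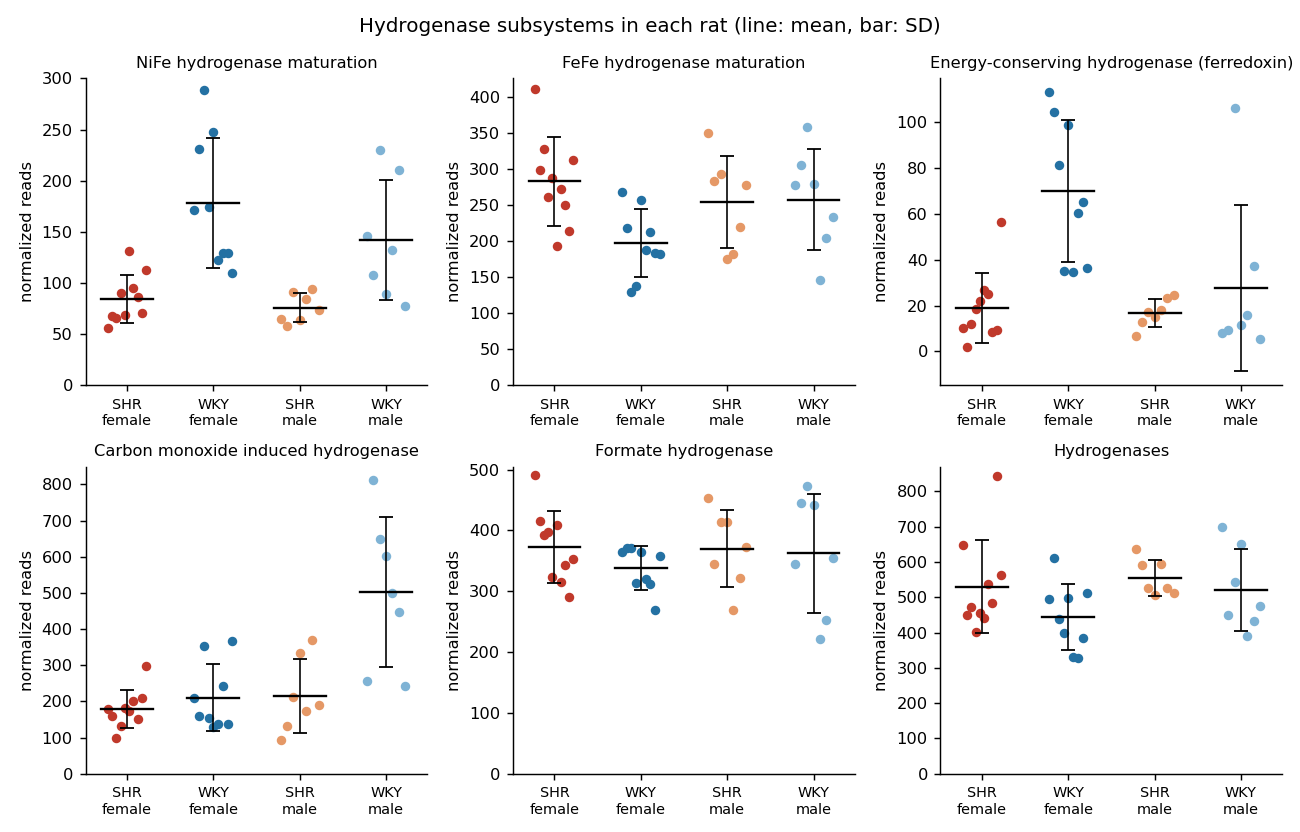
Normalized reads (y axis, reads divided by the library's size factor) of the 6 hydrogenase subsystems that held reads, by group (x axis), with 1 point a rat, a line at the mean and a bar of 1 SD to each side. Carbon monoxide induced hydrogenase reached a median of 501 in WKY males, and Energy-conserving hydrogenase (ferredoxin) a median of 65.0 in WKY females, while the groups overlapped in Formate hydrogenase and Hydrogenases.

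Between the strains in females, 3 of the 6 hydrogenase subsystems were called, 1 higher and 2 lower, against 8.79% of the 1024 subsystems tested (3.81% higher and 4.98% lower), and nothing is read from that count because the set was proposed with this contrast in view. Energy-conserving hydrogenase (ferredoxin) averaged 19.003 ± 15.4 normalized reads in SHR females (SD, n = 10) and 69.8 ± 31.01 in WKY females (SD, n = 9), a log2 difference of -2.07 ± 0.45 (SE), and 10 of 10 SHR females had values under the WKY median. NiFe hydrogenase maturation averaged 84.2 ± 23.5 and 178 ± 63.8, a log2 difference of -1.04 ± 0.20 (SE), and here too 10 of 10 SHR females lay under the WKY median. FeFe hydrogenase maturation went the other way, at 283 ± 61.6 against 197 ± 47.5, a log2 difference of 0.53 ± 0.16 (SE), with 10 of 10 SHR females above the WKY median. This last call was lost without any one of 8 rats, SHR females 1, 2, 3 and 10 and WKY females 3, 4, 8 and 9, with log2 differences of 0.46 to 0.52.

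The other 3 subsystems lay closer to 0 in females. Their log2 differences were -0.18 ± 0.25 (SE) in Carbon monoxide induced hydrogenase, 0.13 ± 0.12 in Formate hydrogenase and 0.25 ± 0.13 in Hydrogenases. The median over the 6 was -0.02, beside -0.05 over all subsystems tested. In the authors' deposited table of their female model, whose fold changes run as WKY over SHR, the same 3 subsystems appear among 85 functions, with log2 fold changes of 1.91 for Energy-conserving hydrogenase (ferredoxin), 1.08 for NiFe hydrogenase maturation and -0.53 for FeFe hydrogenase maturation.

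In males, Carbon monoxide induced hydrogenase and NiFe hydrogenase maturation were lower in SHR, 2 of the 6 hydrogenase subsystems, against 2.64% of all subsystems called in either direction and 1.95% called lower. Earlier results of these data were known when the set was chosen, and whether the male values were among them is not recorded, so these tests are not offered as independent support. Carbon monoxide induced hydrogenase averaged 215 ± 102 normalized reads in SHR males and 501 ± 208 in WKY males (SD, n = 7 each). It fell by 1.24 on the log2 scale (SE 0.30, limma adjusted p 0.0164), and 7 of 7 SHR males lay below the WKY median. The groups still overlapped, as 2 SHR males lay above the lowest WKY male. The call was lost without SHR male 1 (log2 difference -1.06, limma adjusted p 0.0512) and with males fitted alone (0.122), and held in 39 of 41 alternatives.

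NiFe hydrogenase maturation averaged 75.6 ± 14.4 normalized reads in SHR males and 142 ± 58.7 in WKY males (SD, n = 7 each). It fell by 0.82 on the log2 scale (SE 0.23, limma adjusted p 0.0492), with 7 of 7 SHR males below the WKY median. This call lay at the threshold: it held in 18 of 41 alternatives and in 13 of the 33 fits that each left out 1 rat, where the limma adjusted p ran from 0.0113 to 0.111 and was highest without WKY male 6 (log2 difference -0.70). The difference stayed between -0.94 and -0.68 in those fits.

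The other 4 hydrogenase subsystems did not pass in males. Energy-conserving hydrogenase (ferredoxin) averaged 16.8 ± 6.08 normalized reads in SHR males and 27.6 ± 36.1 in WKY males (SD, n = 7 each), a log2 difference of -0.06 ± 0.52 (SE, limma adjusted p 0.991). The size of this difference depended on the test and on 1 rat: it was -0.70 by edgeR (adjusted p 0.451) and -0.71 by DESeq2 (adjusted p 0.393) on the recovered reads, and 0.37 by limma without WKY male 3. Log2 differences were -0.01 ± 0.19 (SE) in FeFe hydrogenase maturation, 0.06 ± 0.14 in Formate hydrogenase and 0.12 ± 0.15 in Hydrogenases (limma adjusted p 0.667 to 1 in these 3). The median over the 6 was -0.04, beside -0.02 over all subsystems. In the authors' deposited table of their male model, 1 hydrogenase subsystem appears among 16 functions, Carbon monoxide induced hydrogenase, with a log2 fold change of 1.22 as WKY over SHR and the authors' adjusted p of 0.00589.

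**Figure D3:**
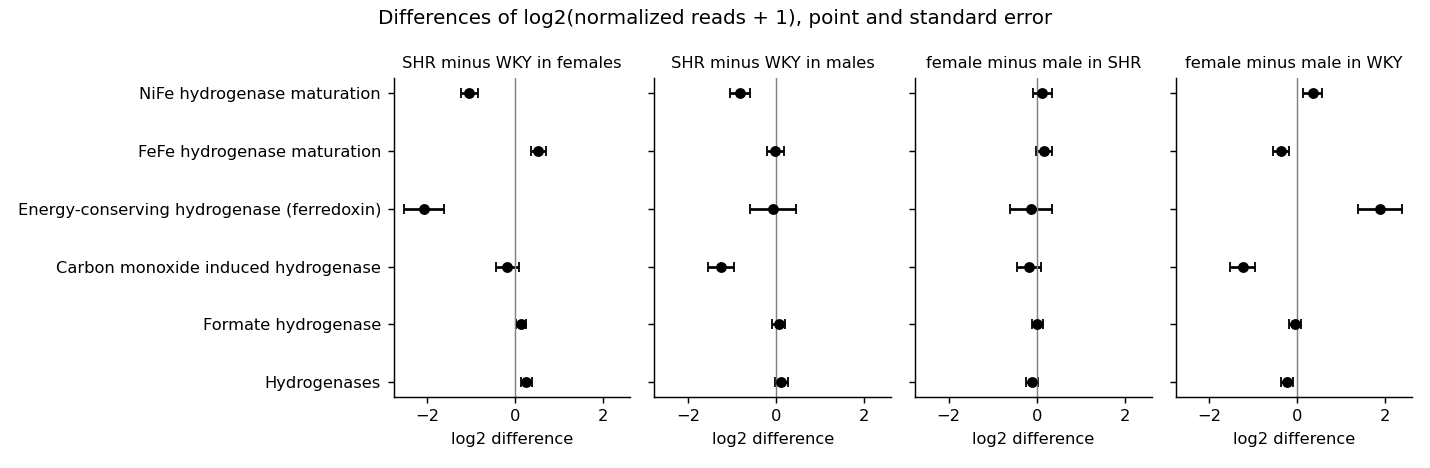
Log2 differences of normalized reads + 1 (x axis, point and bar of 1 SE) of the 6 hydrogenase subsystems (y axis) in the strain comparison within each sex and the sex comparison within each strain. NiFe hydrogenase maturation lay at -1.04 in females and -0.82 in males, Energy-conserving hydrogenase (ferredoxin) at -2.07 in females and -0.06 in males (-0.70 in males by edgeR), and Carbon monoxide induced hydrogenase at -0.18 in females and -1.24 in males.

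Between the sexes of WKY, Carbon monoxide induced hydrogenase was lower in females. With Energy-conserving hydrogenase (ferredoxin), 2 of the 6 were called, 1 higher and 1 lower, against 1.37% of all subsystems, 0.0977% higher and 1.27% lower, and nothing is read from that count because the high level of the latter in WKY females was known. The former averaged 209.7 ± 92.5 normalized reads in WKY females (SD, n = 9) and 501 ± 208 in WKY males (SD, n = 7). Its log2 difference was -1.24 ± 0.28 (SE, limma adjusted p 0.0151), with 9 of 9 WKY females below the male median and 3 of them above the lowest male. The WKY males here are the same 7 rats as in the strain comparison of males, so both differences rest on their level. The call was lost without WKY male 2 (log2 difference -1.11, limma adjusted p 0.0686), WKY male 3 (-1.16, 0.0509) or WKY male 4 (-1.18, 0.0568), and with WKY rats fitted alone (0.0621).

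Energy-conserving hydrogenase (ferredoxin) was the other call, with 9 of 9 WKY females above the male median and a log2 difference of 1.88 ± 0.49 (SE). The 9 WKY females are the rats whose high level was known when the set was proposed, so this difference is a description too. Only 14 of 41 alternatives called it, and it was 1.32 by edgeR and 1.35 by DESeq2. Without WKY male 3, whose 106 normalized reads were the highest of the WKY males, the difference was 2.32. The remaining 4 subsystems did not pass between the sexes of WKY, with log2 differences of -0.37 ± 0.18 (SE) in FeFe hydrogenase maturation, 0.35 ± 0.22 in NiFe hydrogenase maturation, -0.23 ± 0.14 in Hydrogenases and -0.06 ± 0.13 in Formate hydrogenase (limma adjusted p 0.243 to 0.844). The median over the 6 was -0.14, beside 0 over all subsystems.

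Between the sexes of SHR, limma called 0 of 1024 subsystems, which is 0%, with 47 at an unadjusted p under 0.05, and edgeR and DESeq2 called 0 as well. The log2 differences of the hydrogenase subsystems ran from -0.18 ± 0.27 (SE) in Carbon monoxide induced hydrogenase to 0.17 ± 0.17 in FeFe hydrogenase maturation, with limma adjusted p from 0.892 to 1 and none at an unadjusted p under 0.05. NiFe hydrogenase maturation stood at 0.13 ± 0.21 and Energy-conserving hydrogenase (ferredoxin) at -0.13 ± 0.48, a sign that turned by edgeR (0.10) and DESeq2 (0.17).

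Whether the strain difference itself differed between the sexes was tested as an interaction, which called 0 of 1024 subsystems (0%) by limma, with 78 at an unadjusted p under 0.05, and 0 by edgeR and 1 by DESeq2, which was no hydrogenase subsystem. The strain difference of Carbon monoxide induced hydrogenase in females minus that in males was 1.06 ± 0.39 (SE, limma adjusted p 0.426, unadjusted 0.0102). For Energy-conserving hydrogenase (ferredoxin) it was -2.01 ± 0.69 (limma adjusted p 0.414, unadjusted 0.00628), and -1.22 by edgeR. For FeFe hydrogenase maturation it was 0.54 ± 0.25 (limma adjusted p 0.642, unadjusted 0.0369). Thus 3 of the 6 had an unadjusted p under 0.05, beside 7.62% of all subsystems. NiFe hydrogenase maturation, low in SHR of both sexes, stood at -0.22 ± 0.31 (limma adjusted p 0.897). These values use the female difference and are not independent of it, and they leave a strain difference that is particular to either sex unshown for any of the 6.

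Across rats, 2 of the 15 pairs of hydrogenase subsystems varied together once each group's mean was taken out. NiFe hydrogenase maturation and Energy-conserving hydrogenase (ferredoxin) correlated at Pearson's r = 0.70 over 33 rats. The permutation p was 1e-05, the smallest that 100000 permutations can give (adjusted p 0.00015 over the 15 pairs). Spearman's rho was 0.69 (permutation, adjusted p 0.0003). Without the 2 rats farthest from the median of Energy-conserving hydrogenase (ferredoxin) r was 0.69, and within the 4 groups r ran from 0.59 to 0.87. FeFe hydrogenase maturation and Formate hydrogenase correlated at r = 0.62 (permutation p 0.00043, adjusted p 0.00322), with a rho of 0.55 (permutation, adjusted p 0.0161). Without the 2 rats farthest from the median of FeFe hydrogenase maturation r was 0.60. Within groups that r ran from 0.22 in WKY females to 0.94 in WKY males. The other 13 pairs did not pass. Among them, Carbon monoxide induced hydrogenase, also a NiFe enzyme, had r = 0.20 with NiFe hydrogenase maturation (permutation, adjusted p 0.621). All pairs share each rat's library and size factor. Whether the same genes or reads are counted in both subsystems of a pair was not tested. How many pairs among all subsystems vary together was not computed, so neither r is shown to be particular to hydrogenases. The closest functions outside the set, named below, reached r = 0.79 for NiFe hydrogenase maturation, 0.82 for FeFe hydrogenase maturation and 0.74 for Formate hydrogenase. For Energy-conserving hydrogenase (ferredoxin) the closest reached 0.69.

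**Figure D4:**
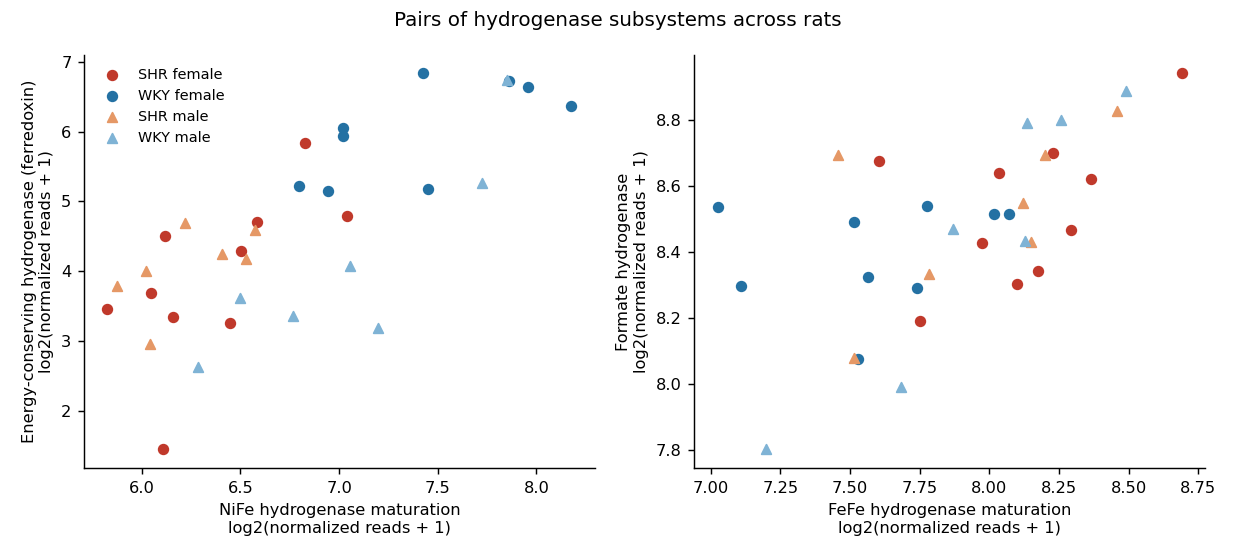
The 2 pairs of hydrogenase subsystems that varied together, as log2(normalized reads + 1) with 1 point a rat, coloured by group (circles females, triangles males). In the left panel Energy-conserving hydrogenase (ferredoxin) is set against NiFe hydrogenase maturation (r = 0.70 after removing group means), and in the right panel Formate hydrogenase against FeFe hydrogenase maturation (r = 0.62).

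The functions and genera most like each hydrogenase subsystem were found by the same group-centred r over 33 rats, among 1018 functions and 1458 bacterial genera. These are the highest of many values and are given as a description. Genus names were taken from the deposited tables unchecked, and related genera can share reads. Carbon monoxide induced hydrogenase ran closest to ABC transporter oligopeptide (r = 0.80), Glycerol fermentation to 1,3-propanediol (0.79) and Extracellular Polysaccharide Biosynthesis of Streptococci (0.68), and to the genera Clostridioides (0.82), Neorickettsia (0.66) and Longibaculum (0.63). Clostridioides, the genus of the toxin-forming Clostridioides difficile, averaged 3087 normalized reads, and Neorickettsia 11.7.

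Respiratory dehydrogenases 1 was alike to both members of the first pair, with r = 0.69 for Energy-conserving hydrogenase (ferredoxin) and 0.76 for NiFe hydrogenase maturation. The periplasmic transport system for alpha-glucosides, at 2.74 normalized reads, was also among the top 3 of both (0.54 and 0.60). Energy-conserving hydrogenase (ferredoxin) was further alike to tRNA-dependent amino acid transfers (0.54) and to the genera Succinivibrio (0.65), Halothermothrix (0.64) and Marinomonas (0.62). NiFe hydrogenase maturation was closest to Pterin metabolism 3 (0.79), and among genera to Pectinatus (0.65), Candidatus Nesciobacter (0.58) and Thioflavicoccus (0.56).

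FeFe hydrogenase maturation ran closest to the subsystem for D-galactarate, D-glucarate and D-glycerate catabolism, which the table holds in 2 versions (r = 0.82 each), and to Ammonia assimilation (0.71). Its nearest genera were Alysiella (0.78), Butyrivibrio (0.76) and Selenomonas (0.75), of which Butyrivibrio, a fibre-fermenting butyrate producer, averaged 1649 normalized reads and Alysiella 12.8. Formate hydrogenase shared a version of that catabolic subsystem (0.74), beside Experimental ThMP RZ (0.74) and Phage tail proteins 2 (0.74), with the genera Acidithiobacillus (0.72), Caproiciproducens (0.72) and Megasphaera (0.71). Hydrogenases ran closest to NusA-TFII Cluster (0.82), bacterial sigma factors of transcription initiation (0.70) and the Cell division-ribosomal stress proteins cluster (0.64), and to the genera Pseudoclostridium (0.78), Monoglobus (0.75) and Turneriella (0.65).

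Of the lists of neighbouring pathways, the list of fermentations was the one with a member that limma called. Its 10 subsystems, all with reads, were matched by name, and whether each releases hydrogen was not checked. Limma called 1 higher in SHR females, 1 lower in SHR males and 1 lower in WKY females than in WKY males. Of all subsystems, 3.81%, 1.95% and 1.27% were called in those directions. An unadjusted p under 0.05 by limma was met by 2 in females, 6 in males, in both directions, and 3 between the sexes of WKY. Over all subsystems 25.4%, 19.6% and 18.8% met it. DESeq2 called 1, 2 and 1 of the 10 in these comparisons, beside 12.2%, 7.52% and 6.64%, and edgeR 1 in each, beside 9.96%, 3.61% and 3.52%. Glycerol fermentation to 1,3-propanediol, a route by which clostridia and enteric bacteria dispose of electrons, averaged 28.2 ± 8.83 normalized reads in SHR males and 89.1 ± 55.7 in WKY males (SD, n = 7 each). It fell by 1.43 on the log2 scale (SE 0.31, limma adjusted p 0.00951), a call that was lost with males fitted alone (0.112). Between the sexes of WKY, with females at 32.3 ± 13.7 (SD, n = 9), the log2 difference was -1.29 ± 0.29 (SE, limma adjusted p 0.0151). That call was lost without WKY male 2, 3 or 4 (limma adjusted p 0.0686, 0.0509 and 0.0584) and with WKY rats fitted alone (0.130).

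Lysine fermentation MCB 432, which ends in butyrate and acetate, averaged 116 ± 28.6 in SHR females and 71.3 ± 26.9 in WKY females, a log2 difference of 0.74 ± 0.18 (SE) that is again a description. In males its levels were 118 ± 19.4 and 72.7 ± 23.9 (SD, n = 7 each), a log2 difference of 0.74 ± 0.21. This did not pass (limma adjusted p 0.0507) but was called in 15 of 41 alternatives, DESeq2 among them. The list also holds a subsystem named Lysine fermentation, with higher levels, which passed in neither sex. It averaged 356 ± 89.8 in SHR females and 295 ± 78.0 in WKY females. The log2 difference was 0.27 ± 0.17 (SE), called in 0 of 41 alternatives. In males Lysine fermentation averaged 333 ± 64.2 in SHR and 240 ± 78.5 in WKY. That log2 difference was 0.51 ± 0.20 (SE, limma adjusted p 0.143), called in 1 of 41 alternatives. The most abundant of the list, Fermentations: Mixed acid, averaged 1079 ± 125 in SHR females, 1205 ± 194 in WKY females, 1203 ± 199 in SHR males and 1299.97 ± 202 in WKY males, and passed in no comparison.

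Methane formation, the pathway that Coenzyme F420 hydrogenase serves, had 11 subsystem names, of which 10 held reads, all at low levels. Its most abundant member, Methanogenesis, averaged 9.14 ± 4.58, 8.32 ± 3.48, 7.89 ± 3.49 and 10.5 ± 4.34 normalized reads in SHR females, WKY females, SHR males and WKY males. Coenzyme F420 synthesis averaged 5.43, 9.57, 5.56 and 6.82 in the same order. By limma 0 of the 10 were called in any comparison, with 3 at an unadjusted p under 0.05 between the strains in females, where 25.4% of all subsystems had one, and 0 in the others. DESeq2 called 1 in females, against 12.2% of all subsystems, and edgeR 0 in any comparison.

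By the acetyl-CoA pathway acetogens fix carbon dioxide with hydrogen. The list for this pathway and carbon monoxide held 5 subsystems matched by name, and names outside the pathway are among them. It had 0 calls by limma, edgeR and DESeq2. At most 1 of the 5 had an unadjusted p under 0.05 in a comparison. Carbon monoxide dehydrogenase maturation factors averaged 1.53, 1.47, 2.89 and 3.601 normalized reads in SHR females, WKY females, SHR males and WKY males, and CO Dehydrogenase 1.05, 1.21, 2.16 and 3.27. Both were near the limit of counting. Whether either holds the dehydrogenase that partners Carbon monoxide induced hydrogenase in carbon monoxide oxidizers is not given in the sources used here. The most abundant of the list, Pyruvate metabolism II: acetyl-CoA, acetogenesis from pyruvate, averaged 669 ± 61.7, 767 ± 106, 757 ± 77.5 and 886 ± 156. Its name is of acetate formed from pyruvate, so its level does not stand for the fixation of carbon dioxide.

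Sulfate reduction-associated complexes, the single subsystem found for sulfate reduction, averaged 15.9 ± 10.96 normalized reads in SHR females, 8.04 ± 5.27 in WKY females, 4.51 ± 4.51 in SHR males and 4.85 ± 3.92 in WKY males and passed in no comparison by limma, edgeR or DESeq2. Its unadjusted p was under 0.05 in 1 comparison, female minus male in SHR (log2 difference 1.71 ± 0.61, SE, limma adjusted p 0.824). Metal supply had 2 subsystems, Fe-S cluster assembly at 290.3 ± 54.3, 352 ± 52.6, 296 ± 30.5 and 327 ± 53.8, and Transport of Nickel and Cobalt at 78.6, 100.7, 87.3 and 110 in the same order of groups. Both limma and edgeR called 0 of the 2 in any comparison and DESeq2 called 1 in females, against 12.2% of all subsystems. Both had an unadjusted p under 0.05 by limma in females, as had 25.4% of all subsystems.

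The 3 subsystems of ferredoxin and respiratory electron carriers, which feed or drain the same electrons, also had 0 calls by limma, edgeR and DESeq2, with at most 1 at an unadjusted p under 0.05 in a comparison. Pyruvate:ferredoxin oxidoreductase, which reduces ferredoxin as pyruvate is oxidized and is counted in the fermentations too, averaged 637, 655, 654 and 587 normalized reads in SHR females, WKY females, SHR males and WKY males. The sodium-translocating NADH-quinone oxidoreductase and rnf-like group, the most abundant of the 3, averaged 972 ± 203, 1017 ± 309, 913 ± 192 and 816 ± 254.

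Of the bacterial genera listed by name as makers or users of hydrogen, 2 listed as makers passed. Both passed between the sexes of WKY, where limma called 33 of 1418 genera. Whether the members of these genera in the rats make hydrogen was not checked. Faecalibacterium, a butyrate producer, took 0.419% ± 0.0907 (SD, n = 9) of assigned reads in WKY females and 0.749% ± 0.410 (SD, n = 7) in WKY males, a log2 difference of -0.65 on the normalized scale (limma adjusted p 0.0484). Bacteroides took 8.98% ± 5.15 and 3.99% ± 3.19, a log2 difference of 1.37 (limma adjusted p 0.0499). Both calls lay at the threshold, and the alternatives were not run for genera. Clostridium, a genus rich in FeFe enzymes, took 2.27%, 2.98%, 2.30% and 3.79% in SHR females, WKY females, SHR males and WKY males and did not pass (log2 difference between the strains of males -1.09, limma adjusted p 0.0739).

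Among hydrogen users, the acetogen Blautia took 2.001% ± 0.567, 1.49% ± 0.443, 1.89% ± 0.534 and 1.86% ± 0.675 of assigned reads in the same order, and the sulfate reducer Desulfovibrio 0.152%, 0.119%, 0.154% and 0.128%. On the normalized scale, where the tests were made, neither passed in a comparison (limma adjusted p 0.512 to 0.993 for Blautia and 0.916 to 0.998 for Desulfovibrio). The scales differ: between the strains in females the log2 ratio of mean percents was 0.43 for Blautia and 0.36 for Desulfovibrio, and the log2 difference of normalized reads 0.06 and 0.0045. Between the strains in males limma called 0 of 1418 genera, with 164 at an unadjusted p under 0.05. The methanogens are in the table of archaea, where Methanobrevibacter took 0.0323% ± 0.00787, 0.0257% ± 0.0130, 0.0329% ± 0.00815 and 0.0257% ± 0.00384 of assigned reads, given without a test.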

How the data were processed

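Cecal DNA of 33 rats was extracted with a soil DNA kit and sequenced as Nextera shotgun libraries, per the labels' protocols. FastQC 0.11.5, cutadapt 2.6, Trimmomatic 0.36 and DESeq2 are named in the submitters' processing notes, and what assigned functions and taxa to reads is not given in the sources used here. Values of the deposited normalized tables are a signal of at least 0, the reads per subsystem or genus divided by a size factor. Dividing by the step of the low values gave whole reads for 100% of values (tolerance 0.01 read). The deposited genus and archaeal tables are in percent of assigned reads. Tables of the authors' own models were deposited too, with log2 fold changes and p-values. That of their general model lists 3 hydrogenase subsystems, but what its fold change compares is not stated, and its values are not printed.

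The design foresaw a count test only for a table of whole counts, so limma (lmFit, eBayes with trend and robust estimation) was run on log2(normalized reads + 1) in 1 fit of 4 group means over 33 rats. The pseudocount and the equal weight of each rat on this scale mean that differences of subsystems with few reads can differ from those of the count tests in either direction. The 33 subsystems with 0 reads in every rat were left out, Benjamini-Hochberg adjustment covered the other 1024, and every test was 2-sided. Genera were fitted likewise, over 1418 of them. Alternatives were edgeR's quasi-likelihood test with TMM and DESeq2 on the recovered reads, pseudocounts of 5 and 0.5, a filter on low values, scaling to equal totals, the compared groups alone, leaving out the 3 shallowest libraries and leaving out each rat. They were not run for genera. The script was tested on simulated data.

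Correlations used group-centred log2 values with permutations within groups. Named were all hydrogenase subsystems, the 3 functions and 3 genera most like each, and, of each pathway list, the called and the most abundant members, with other listed subsystems and genera named after their values were seen. The hydrogenase set and all lists were chosen with earlier results of these data known. P-values measure the spread between rats and treat them as independent. Without molecular identifiers reads are not counts of molecules, and limits from depth cover counting error only. Fits ran in R 4.3.3 with limma 3.58.1, DESeq2 1.42.0 and edgeR 4.0.16, and summaries and plots in Python 3.11.15 with scipy 1.17.1, pandas 2.3.3, matplotlib 3.10.9 and numpy 2.4.6.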

Additional observations from a re-analysis of the deposited data

Results flagged for a closer look

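Each of 28 sets of values, a hydrogenase subsystem or their summed share in a group, was searched for a single rat far from the rest of its group, a test that chance meets in about 1 of 20 sets. Both rats found were high in Energy-conserving hydrogenase (ferredoxin), the subsystem with the fewest reads. SHR female 10, one of the 3 shallowest libraries with 132735 function reads, had 56.2 normalized reads, and the next SHR female had 26.7. Without this rat the log2 difference between the strains in females was -2.28 instead of -2.07. WKY male 3 had 106 normalized reads, and the next WKY male had 37.3. This rat also had the highest NiFe hydrogenase maturation of the WKY males, at 230 normalized reads. Without WKY male 3, the log2 difference between the strains in males was 0.37 instead of -0.06, and neither value passed (limma adjusted p 0.694 and 0.991).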

How the results depend on the processing

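Of 990 differences of hydrogenase subsystems with 1 rat left out, 936 kept their side of the threshold and 54 lost a call, and of 233 with an adjusted p under the other alternatives 223 kept their side and 10 lost a call. The sign changed in 23 of the 990 and in 3 of 234 under the other alternatives, in each case for a difference that was not called and was at most 0.13 in size, and in 0 called ones. The count of called hydrogenase subsystems between the strains in males, 2 as reported, was 1 with libraries scaled to equal totals, 1 without the 3 shallowest libraries and 0 with males fitted alone. Between the sexes of WKY the count, again 2, was 1 by edgeR, by DESeq2, with a pseudocount of 0.5 and with equal totals, and 0 with WKY rats fitted alone. The cause was not tested. With 1 rat left out the count ran from 2 to 3 between the strains in females, 0 to 2 in males, 0 to 0 between the sexes of SHR, 0 to 2 between those of WKY and 0 to 0 for the interaction.

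Over all 1024 subsystems the count of calls moved more. In males it was 27 as reported, 37 by edgeR, 77 by DESeq2, 0 with males alone, 10 without WKY male 6 and 83 without WKY male 7. Between the sexes of WKY it was 14, 36 by edgeR, 68 by DESeq2, 2 with WKY alone, 3 without WKY male 2 and 71 without WKY male 7, and 27 of the 33 fits with 1 rat left out moved it by over 1.5 times, against 6 of 33 in males. In females it was 90, with 61 without WKY female 3, 136 without SHR female 9 and 150 without the 3 shallowest libraries. No paired analysis was possible because the labels give rats no number that is shared between groups. Depth limits Energy-conserving hydrogenase (ferredoxin) most, with as few as 2 reads in a library.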
